A study of Mus musculus with 6 samples.

Results

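Breakdown of the branched-chain amino acids (BCAAs) leucine, isoleucine and valine was examined in the heart through 10 genes, of 54232 gene identifiers counted. These were the genes for uptake at the cell surface (Slc7a5, Slc7a8, Slc3a2), entry into mitochondria (Slc25a44), transamination (Bcat1, Bcat2), the branched-chain alpha-keto acid dehydrogenase complex or BCKDH (Bckdha, Bckdhb, Dbt) and its kinase (Bckdk). They were chosen by name for their place in the pathway, and the rule itself used no measured value, although earlier results of these data were known when they were chosen. The study asked how Tributyrin, a triglyceride that releases the short-chain fatty acid butyrate, acts on the heart of obese mice with early cardiac dysfunction. RNA sequencing was done on heart ventricle from 3 mice given Tributyrin and 3 given vehicle, which the sample labels name PBS. All 6 were wild-type C57BL/6J mice fed a western diet (WD) for 15 weeks, so no lean mice enter the comparison. Tributyrin was given by needle feeding over 3 weeks at 5 g/kg of body weight, in alternating periods on and off treatment, and the sources used here do not state the age of the mice. The groups are called WD + Tributyrin and WD + Vehicle below.

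BCAAs enter cells mainly through heterodimeric transporters, in which a light chain such as LAT1 (Slc7a5) or LAT2 (Slc7a8) carries the substrate and the heavy chain 4F2hc (Slc3a2) brings it to the membrane. Branched-chain aminotransferases then exchange the amino group reversibly, and the resulting keto acids are committed to oxidation by BCKDH, an irreversible step inside mitochondria. Phosphorylation of the E1 alpha subunit by the kinase Bckdk turns BCKDH off, and the phosphatase PP2Cm, encoded by Ppm1k, turns it on again. The heart is a tissue that transaminates and oxidises BCAAs, and poor BCAA breakdown has been linked with heart failure. Transcript amounts do not measure phosphorylation, and no protein was measured in the data used here.

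Library totals ranged from 20369746 to 32734485 counts, and mitochondrial genes took 23.6% to 26.5% of the counts in WD + Vehicle and 25.9% to 28.8% in WD + Tributyrin. Marker genes fitted heart muscle. Over counts from nuclear genes, 9 markers listed for ventricular cardiomyocytes summed to between 79501 and 83437 CPM (counts per 1000000 counts). The 6 atrial markers summed to 248, 234 and 73.6 CPM with vehicle and 42.1, 86.8 and 61.3 CPM with Tributyrin. Vehicle mice 1 and 2 thus held more atrial transcript than any Tributyrin mouse, and the part of this in other values was not tested. None of the 11 marker lists examined separated the groups completely. All 6 libraries held Y-linked transcripts (Ddx3y 1571 to 2559 counts, Xist 0 to 6 counts), so a difference in sex between the groups was not seen.

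The genes differed far more from each other than between treatments. Levels of different genes are compared per length, as TMM-scaled CPM per kilobase of exon (CPM/kb), where TMM is the scaling of edgeR that corrects for library composition. Bckdha was highest at 49.0 ± 3.06 CPM/kb (SD, n = 6 mice), above 95.4% of the genes tested. Bckdk followed at 30.9 ± 1.42 CPM/kb, and then came Bcat2 at 29.1 ± 2.67, Bckdhb at 27.8 ± 2.83 and Dbt at 24.3 ± 2.23 CPM/kb. Each of these neighbours after Bckdha overlapped the next in range. Bckdk was above Bcat2 in 5 of 6 mice, Bcat2 above Bckdhb in 5 of 6, and Bckdhb above Dbt in 6 of 6. With the length of the longest transcript in place of all exons, Bcat2 had the highest level, so the order among these highly expressed genes depends on the length used.

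The transport genes lay lower, with no overlap between neighbours. Slc3a2 stood at 9.13 ± 0.415 CPM/kb and Slc25a44 at 6.51 ± 0.310 CPM/kb. Slc7a5 reached 1.39 ± 0.242 CPM/kb and Slc7a8 0.781 ± 0.129 CPM/kb, above 33.9% and 23.5% of the genes tested. Bcat1, the cytosolic aminotransferase, was lowest at 0.156 ± 0.0566 CPM/kb, above only 4.96% of the genes tested. Thus the mitochondrial aminotransferase was represented by far more transcript than the cytosolic one in every mouse, with a Bcat1 to Bcat2 ratio per kilobase between 0.00178 and 0.00824.

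**Figure D1:**
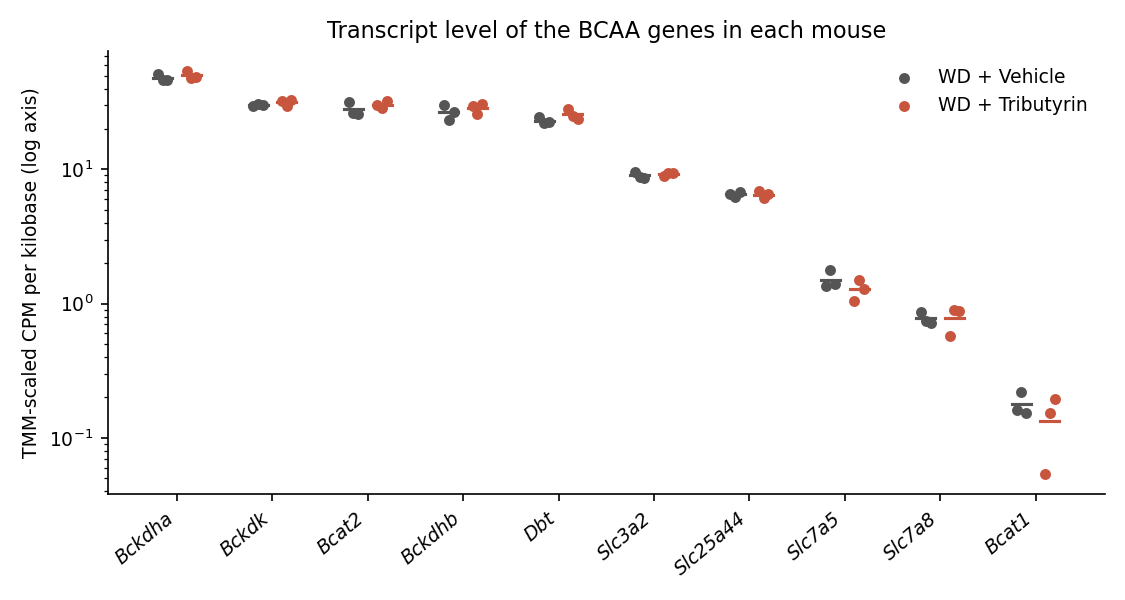
Transcript level of the 10 genes in each mouse, as TMM-scaled CPM per kilobase of exon on a log axis, with WD + Vehicle in grey and WD + Tributyrin in red. Points are mice and lines are group means (n = 3 per group). Bckdha has the highest mean at 49.0 CPM/kb and Bcat1 the lowest at 0.156 CPM/kb, and the points of the groups overlap for every gene.

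None of the 10 genes passed the test for a change with Tributyrin. All 10 were expressed highly enough to be tested, 0 passed a false-discovery rate (FDR) of 10% and 0 passed 5% (edgeR quasi-likelihood test with Benjamini-Hochberg adjustment, adjusted p = 0.999 for each). Among all 14133 genes tested, 0% passed at either level. DESeq2 and limma-voom also called 0 of the 10 genes, while over all genes DESeq2 called 11 and limma-voom 0 at an FDR of 10%. At an unadjusted p under 0.05 the count was 0 of 10, against 4.25% of all genes. No gene of the 10 had groups that did not overlap, against 8.94% of all genes. Log2 fold changes of Tributyrin over vehicle were above 0 for 7 of 10 genes, against 49.6% of all genes, and their median was 0.05, against -0.0013 over all genes. The signs depended on the scaling. With libraries scaled by total counts alone, 4 of 10 were above 0, but that scaling also moved the median of all genes to -0.07. The share of all genes above 0 under it is not given here, so the 4 of 10 cannot be set against 49.6%. The edgeR p-values set the difference between group means against the spread between libraries within groups, which is estimated with information shared across genes. In bulk tissue, fewer cells of a type and less RNA per cell cannot be told apart.

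Among the surface transporters, both light chains were low and varied more between mice than the shared heavy chain, which had more counts. Counting error was 6.7% to 9.6% of the value for Slc7a5, 8.8% to 11.5% for Slc7a8 and 3.1% to 4.0% for Slc3a2. For Slc7a8 in WD + Vehicle the SD was 10.2% of the mean, within its counting error. Slc7a5 (ENSMUSG00000040010, GRCm38 chr8:121881150-121907694), the LAT1 light chain, gave 126, 222 and 109 counts in WD + Vehicle and 108, 160 and 109 in WD + Tributyrin. Scaled, these were 4.98, 6.54 and 5.16 CPM with vehicle and 3.84, 5.58 and 4.74 CPM with Tributyrin. The highest value was a vehicle mouse and the lowest a Tributyrin mouse, with the groups overlapping between them. The mean was 5.56 ± 0.854 CPM with vehicle and 4.72 ± 0.868 CPM with Tributyrin (SD, n = 3), a log2 fold change of -0.24 ± 0.176 (SE, 95% interval -0.63 to 0.15). Left out singly, vehicle mouse 2 took this value to -0.10, Tributyrin mouse 1 to -0.11 and Tributyrin mouse 2 to -0.38.

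Slc7a8 (ENSMUSG00000022180, chr14:54722209-54781946), the LAT2 light chain, measured 4.35, 3.74 and 3.60 CPM with vehicle and 2.85, 4.50 and 4.44 CPM with Tributyrin. Tributyrin mice thus held both the lowest value and the highest values. The log2 fold change was 0.0085 ± 0.200 (SE), with a 95% interval from -0.43 to 0.45 which corresponds to a change of -26.0% to 36.8%. It was 0.20 without Tributyrin mouse 1 and -0.11 without Tributyrin mouse 2, and its sign turned under several other settings.

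Slc3a2 (ENSMUSG00000010095, chr19:8706882-8723369), the heavy chain, was better covered, with 640 to 1055 counts per library. Its levels were 34.0, 31.1 and 30.3 CPM with vehicle and 31.6, 33.3 and 33.2 CPM with Tributyrin. The Tributyrin mice all lay inside the vehicle range, and the log2 fold change was 0.04 ± 0.078 (SE, 95% interval -0.13 to 0.21).

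The heavy chain exceeded the 5 light chains examined combined. Summed over Slc7a5, Slc7a6, Slc7a7, Slc7a8 and Slc7a11, the level was 4.29 ± 0.426 CPM/kb (SD, n = 6), and the ratio of Slc3a2 to that sum was between 1.86 and 2.46 in the 6 mice. Slc7a6, which encodes a light chain for cationic and neutral amino acids, was as high as Slc7a5 at 1.46 ± 0.151 CPM/kb. Slc7a11, the cystine light chain, was close to absent with 0 to 12 counts per library. The ratio of Slc3a2 to the sum was 2.04 ± 0.163 with vehicle and 2.25 ± 0.235 with Tributyrin (SD, n = 3), with overlapping ranges.

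Slc25a44 (ENSMUSG00000050144, chr3:88410498-88425139) encodes the carrier that takes BCAAs into mitochondria. It gave 23.5, 22.2 and 24.4 CPM with vehicle and 24.5, 21.8 and 23.3 CPM with Tributyrin. Tributyrin mice supplied both extremes, and the means of 23.3 ± 1.11 and 23.2 ± 1.35 CPM (SD, n = 3) were almost equal. Here the log2 fold change was -0.0051 ± 0.0855 (SE), and the interval from -0.19 to 0.18 corresponds to a change of -12.6% to 13.6% in transcript.

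For transamination, the abundant and the scarce enzyme had means that moved in opposite directions, and neither passed the test. Bcat2 (ENSMUSG00000030826, chr7:45570153-45589711), the mitochondrial aminotransferase, measured 124, 103 and 101 CPM with vehicle and 117, 111 and 126 CPM with Tributyrin. The low end was held by vehicle mice 2 and 3, while vehicle mouse 1 lay second highest of the 6. Mean levels were 109 ± 12.4 and 118 ± 7.72 CPM (SD, n = 3), with a log2 fold change of 0.11 ± 0.0917 (SE, 95% interval -0.09 to 0.31). Without vehicle mouse 1 the value was 0.21 with an unadjusted edgeR p of 0.0414, still short of an FDR of 10%. It was 0.059 without vehicle mouse 3, 0.064 without Tributyrin mouse 3 and 0.071 without vehicle mouse 2. An antisense gene, 0610005C13Rik, shares 622 exonic bases with Bcat2 and held 2 to 14 counts per library. What the overlap did to the counts of Bcat2 was not tested.

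Bcat1 (ENSMUSG00000030268, chr6:144993835-145076184) was at the edge of what this depth can measure. It gave 38, 69 and 30 counts with vehicle and 14, 41 and 42 counts with Tributyrin, or 1.5, 2.03 and 1.42 CPM against 0.50, 1.43 and 1.83 CPM. Tributyrin mouse 1 stood apart on the low side, and the other mice of the groups overlapped. Counting error alone is 26.7% of the value in that mouse. The log2 fold change was -0.43 ± 0.394 (SE), the widest interval of the 10 genes at -1.31 to 0.44, and it was -0.038 without Tributyrin mouse 1 and -0.78 without Tributyrin mouse 3.

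The same mouse had the lowest Slc7a5, Slc7a8 and Bcat1 of all 6. In it the 7 fibroblast markers summed to 1053 CPM of nuclear counts, against 1180 to 1329 CPM with vehicle and 1046 and 1295 CPM in the other Tributyrin mice. The 6 macrophage markers summed to 132 CPM there, against 141 to 175 CPM with vehicle and 137 and 173 CPM in the other Tributyrin mice. Tributyrin mouse 1 was also lowest of the 6 for ventricular cardiomyocyte (79501 CPM), atrial (42.1 CPM) and skeletal muscle markers (1604 CPM). It was highest for erythroid (1277 CPM) and Schwann cell markers (18.9 CPM). Tributyrin mouse 3 had the lowest fibroblast sum, with Slc7a8 at 4.44 CPM and Bcat1 at 1.83 CPM. No marker of the fibroblast or macrophage list was at 0 in all libraries, and the part of any of these cells in the low values was not tested.

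The BCKDH subunit genes had means that were higher by 4.82% to 11.2% with Tributyrin. The groups overlapped and the 95% interval crossed 0 for each of them. Bckdha (ENSMUSG00000060376, chr7:25629946-25658981) encodes E1 alpha, the subunit that the kinase phosphorylates. Its levels were 96.9, 87.6 and 88.2 CPM with vehicle and 103, 90.8 and 92.3 CPM with Tributyrin. One Tributyrin mouse was highest, but vehicle mouse 1 exceeded the other two Tributyrin mice. The log2 fold change was 0.07 ± 0.078 (SE, 95% interval -0.11 to 0.24), and scaling by total counts alone gave -0.0033. B3gnt8, a gene on the opposite strand, shares 1171 of the 1899 exonic bases of Bckdha. It held 69 to 147 counts per library against 1864 to 2975 for Bckdha. What the overlap did to either count was not tested.

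Bckdhb (ENSMUSG00000032263, chr9:83925145-84124240), which encodes E1 beta, the other chain of the decarboxylase, varied most among the subunits in WD + Vehicle. It gave 54.5, 42.3 and 48.6 CPM with vehicle and 53.3, 47.0 and 55.4 CPM with Tributyrin. Vehicle mouse 2 was lowest, vehicle mouse 1 second highest, and a Tributyrin mouse was highest. The SD was 12.6% of the mean with vehicle and 8.47% with Tributyrin, against a counting error of at most 3.12%. For this gene the log2 fold change was 0.10 ± 0.103 (SE, 95% interval -0.13 to 0.33), and it was 0.0086 without vehicle mouse 2 and 0.20 without vehicle mouse 1.

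Dbt (ENSMUSG00000000340, chr3:116513070-116549981), which encodes the E2 transacylase core of the complex, had the smallest p of the 10 genes. It measured 81.7, 74.0 and 75.7 CPM with vehicle and 95, 83.3 and 79.2 CPM with Tributyrin. Only vehicle mouse 1 and Tributyrin mouse 3 crossed, and the other mice were ordered by group. Group means were 77.2 ± 4.05 and 85.8 ± 8.20 CPM (SD, n = 3), a log2 fold change of 0.15 ± 0.0846 (SE, 95% interval -0.03 to 0.34). The unadjusted edgeR p of 0.0986 ranked 1253 among the 14133 genes, and the interval corresponds to a change of -2.34% to 26.7% in transcript. Without Tributyrin mouse 3 the log2 fold change was 0.21 with an unadjusted edgeR p of 0.0319, and without Tributyrin mouse 1 it was 0.08.

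Bckdk (ENSMUSG00000030802, chr7:127904082-127910221), the kinase that switches BCKDH off, was the steadiest gene of the 10 in WD + Vehicle. Its levels there were 109, 113 and 111 CPM, an SD of 1.54% of the mean, no larger than the counting error of 1.62% to 2.07%. WD + Tributyrin gave 119, 110.2 and 122 CPM, an SD of 5.19%. A pair of Tributyrin mice lay above every vehicle mouse and the remaining one lay inside the vehicle range. The log2 fold change of 0.08 ± 0.0687 (SE) had the narrowest interval of the 10 genes, from -0.07 to 0.23, which corresponds to a change of -5.0% to 17.4% in kinase transcript.

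**Figure D2:**
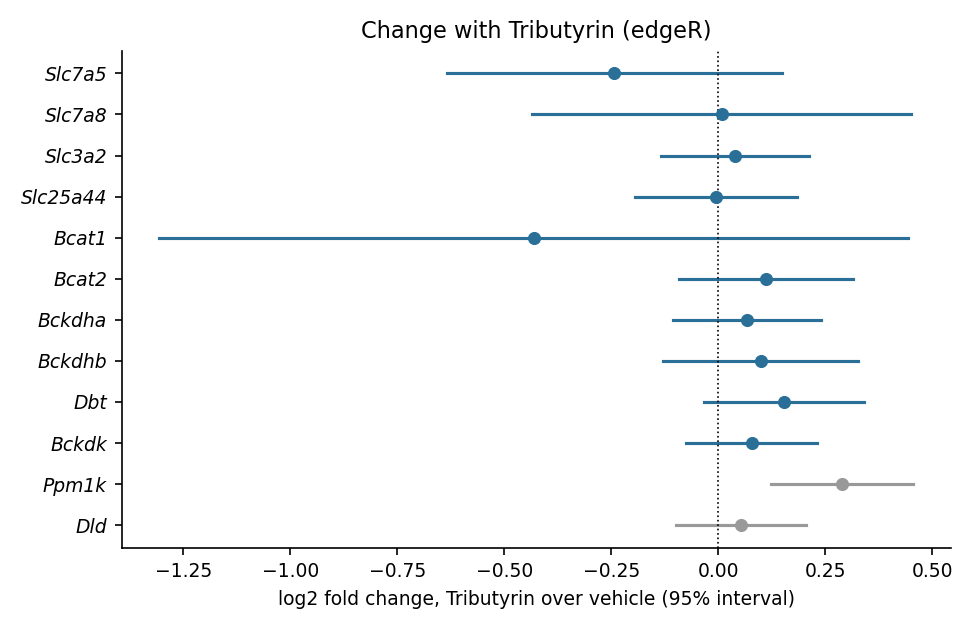
Log2 fold change of Tributyrin over vehicle from edgeR, with bars for the 95% interval (n = 3 mice per group). The 10 genes are in blue and Ppm1k and Dld in grey. Every blue interval crosses 0, from the widest at Bcat1 (-1.31 to 0.44) to the narrowest at Bckdk (-0.07 to 0.23).

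The remaining parts of the complex and its control were also measured. Dld, the E3 subunit that BCKDH shares with other dehydrogenases, was abundant at 477, 447 and 456 CPM with vehicle and 497, 453 and 482 CPM with Tributyrin, a log2 fold change of 0.05 ± 0.0684 (SE). Ppm1k, the phosphatase gene that opposes Bckdk, gave 143, 139 and 126 CPM with vehicle and 172, 169 and 158 CPM with Tributyrin. Every Tributyrin mouse was above every vehicle mouse for Ppm1k, and the log2 fold change was 0.29 ± 0.075 (SE, 95% interval 0.12 to 0.46). In this test its unadjusted p of 0.00296 did not pass adjustment (edgeR, Benjamini-Hochberg adjusted p = 0.999). The adjusted p of Ppm1k was 0.339 with DESeq2, 0.932 with limma-voom and 0.116 in edgeR with no filter on low counts. The paper used DESeq2 on the same libraries and reported a significant increase after adjustment. The study singled out Ppm1k on these same mice, so its place here is not independent evidence. The paper also reported more PP2Cm protein and less phosphorylated BCKDH in hearts with Tributyrin. It found no significant change in the BCAA levels of serum or heart with Tributyrin. In cultured muscle cells it reported more Ppm1k transcript with butyrate.

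Ratios within a mouse do not depend on library scaling. No shift of the kinase against the complex was detected, though 3 mice against 3 allow no p under 0.1 and leave small shifts undecided. Per kilobase, the ratio of Bckdk to Bckdha was 0.580, 0.661 and 0.644 with vehicle and 0.597, 0.624 and 0.678 with Tributyrin. The groups covered nearly the same range, and the log2 difference of Tributyrin minus vehicle was 0.010 ± 0.079 (SE). Against Bckdhb the ratio was 0.980, 1.30 and 1.11 with vehicle and 1.09, 1.15 and 1.07 with Tributyrin, so that the Tributyrin mice lay inside the vehicle range. Against Dbt it was 1.21, 1.38 and 1.32 with vehicle and 1.14, 1.20 and 1.39 with Tributyrin, a log2 difference of -0.07 ± 0.103 (SE). Tributyrin mice held both the lowest and the highest ratio to Dbt, and the difference was -0.012 without Tributyrin mouse 1 and -0.16 without Tributyrin mouse 3. Against the geometric mean of these 3 subunit genes, Bckdk stood between 0.883 and 1.06 in all 6 mice, with a log2 difference of -0.03 ± 0.0873 (SE).

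The ratio of Bckdk to Dld was the least variable of the 13 tested, at 0.229 to 0.252 over all 6 mice, an SD of 0.0513 on the log2 scale. Kinase to phosphatase differed more. The ratio of Bckdk to Ppm1k was 1.24, 1.33 and 1.43 with vehicle and 1.13, 1.06 and 1.26 with Tributyrin, with a log2 difference of -0.21 ± 0.092 (SE). The groups overlapped only between vehicle mouse 1 and Tributyrin mouse 3 (two-sided exact permutation p = 0.2, adjusted over the 13 ratios p = 0.867).

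Within the complex, Dbt to Bckdha was 0.478, 0.479 and 0.487 with vehicle and 0.524, 0.520 and 0.487 with Tributyrin. The vehicle mice were nearly equal, 2 Tributyrin mice were above them and the other matched the highest of them. The log2 difference was 0.08 ± 0.0349 (SE, exact permutation p = 0.2, adjusted p = 0.867). Bckdhb to Bckdha was 0.591, 0.508 and 0.580 with vehicle and 0.546, 0.544 and 0.632 with Tributyrin, a log2 difference of 0.04 ± 0.0991 (SE). For transport, Slc7a5 to Slc3a2 was 0.139, 0.200 and 0.162 with vehicle and 0.116, 0.159 and 0.136 with Tributyrin, a log2 difference of -0.28 ± 0.201 (SE, exact permutation p = 0.2, adjusted p = 0.867). All 3 Tributyrin mice lay below vehicle mice 2 and 3, and vehicle mouse 1 lay among them. Without vehicle mouse 2 the difference was -0.15, and without Tributyrin mouse 1 it was -0.17. The ratio of Bcat1 to Bcat2 had a log2 difference of -0.69 ± 0.60 (SE), and of -0.13 without Tributyrin mouse 1.

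None of the 13 ratios had groups that did not overlap. The lowest p was 0.2, where 3 mice against 3 allow no p under 0.1, and the lowest adjusted p was 0.867 (two-sided exact permutation tests, Benjamini-Hochberg over 13 ratios). The other ratios, Slc7a8 to Slc3a2, Slc7a5 to Slc7a8, Bcat2 to Bckdha and Slc25a44 to Bcat2, had log2 differences between -0.23 and 0.05.

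**Figure D3:**
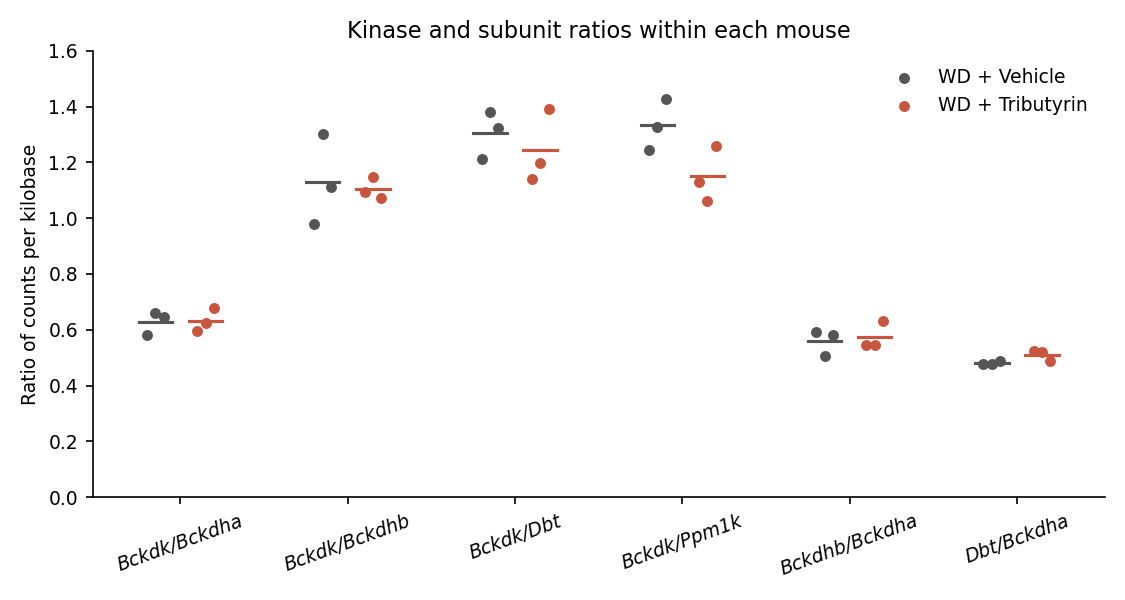
Ratios of counts per kilobase within each mouse, on a linear axis from 0, with WD + Vehicle in grey and WD + Tributyrin in red. Points are mice and lines are group means (n = 3 per group). Bckdk to Bckdha spans 0.580 to 0.678 with the groups intermingled, and Bckdk to Ppm1k spans 1.06 to 1.43 with 1 overlap between the groups.

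Some of the genes had levels that went together from mouse to mouse, although no pair passed adjustment. Over the 6 mice, Bckdha and Dbt had a Pearson r of 0.913 (exact permutation p = 0.0111) and a Spearman rho of 0.829 (exact permutation p = 0.0583) on log2 scaled CPM. Without the 2 mice farthest from the median of Bckdha r was 0.778, and it was 0.927 for deviations from group means. Bcat2 and Bckdhb had an r of 0.848 (exact permutation p = 0.0472) and a rho of 0.829 (exact permutation p = 0.0583), with r at 0.978 without the 2 mice farthest from the median of Bcat2. Among Bcat2, Bckdha, Bckdhb and Dbt, the 6 pairs had r between 0.469 and 0.913. Slc7a5 had r between -0.857 and -0.564 with these 4 genes. With Bckdha it had an r of -0.857 (exact permutation p = 0.0306) and a rho of -0.886 (exact permutation p = 0.0333), but r was -0.38 without the 2 mice farthest from the median of Slc7a5, so that relation rests on them. Without the same 2 mice, r was -0.626 with Bcat2, -0.922 with Bckdhb and 0.381 with Dbt. With Dld, outside the 10 genes, r was -0.933, and -0.908 without them. Bcat1 and Dbt had an r of -0.910 (exact permutation p = 0.0222), but -0.059 without the 2 mice farthest from the median of Bcat1. Of the 45 pairs of the 10 genes, 4 had an exact permutation p for r under 0.05 and 0 after adjustment (lowest Benjamini-Hochberg value 0.340). All points share their library and its scaling.

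The share of counts from mitochondrial genes moved with some of these levels. Its r was 0.912 with Bcat2 (exact permutation p = 0.025), with a rho of 0.886 (exact permutation p = 0.0333), and 0.858 with Bckdhb (exact permutation p = 0.0347), against -0.743 with Slc7a5. With the 10 genes compared, 2 had a p under 0.05 and 0 after adjustment (lowest Benjamini-Hochberg value 0.174). The part of that share in the levels of the genes was not tested.

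**Figure D4:**
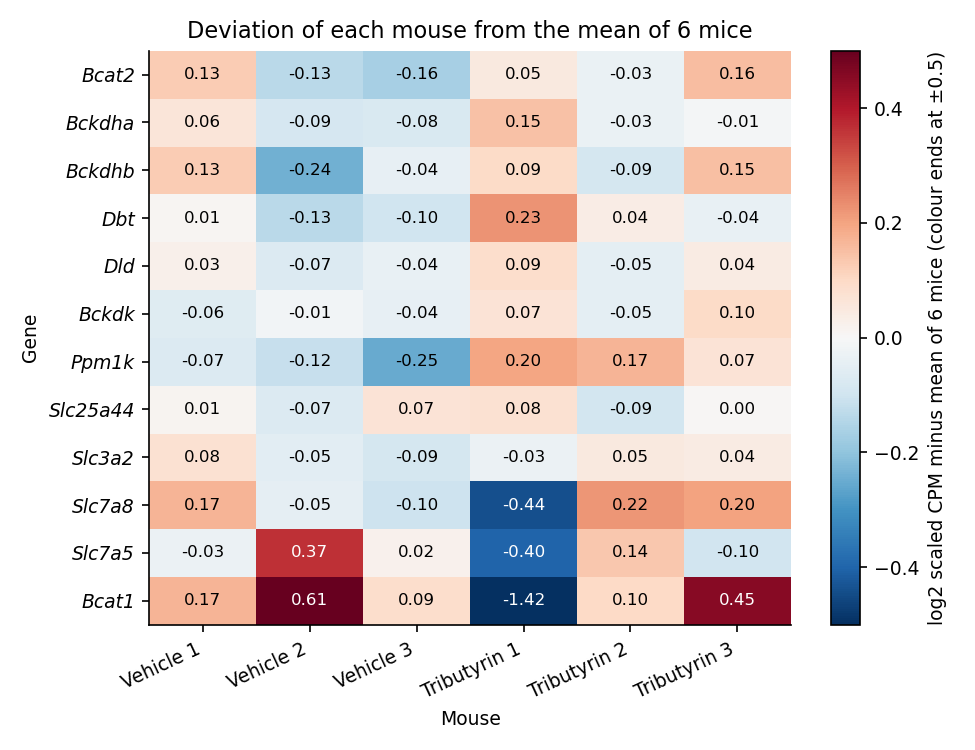
Deviation of each mouse from the mean of 6 mice on the log2 scale of scaled CPM, for the 10 genes with Ppm1k and Dld. Red is above and blue below the mean, and colours end at 0.5 in either direction while the printed values do not. Tributyrin mouse 1 is high for Bckdha (0.15) and Dbt (0.23) and low for Bcat1 (-1.42), Slc7a5 (-0.40) and Slc7a8 (-0.44), and Ppm1k is the row with all vehicle mice below and all Tributyrin mice above 0.

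Other genes of BCAA handling were read from 6 lists, of which 49 of 51 genes were expressed highly enough to be tested and 0 passed an FDR of 10% with edgeR, DESeq2 or limma-voom. At an unadjusted edgeR p under 0.05 there were 2, Ppm1k and Mlxipl. The largest list held 18 genes for later steps of BCAA breakdown, most of them on the way to acetyl-CoA and succinyl-CoA. Of these, 15 had log2 fold changes above 0 and 3 below, against 49.6% above 0 among all genes, with a median of 0.07 and none at an unadjusted p under 0.05. When libraries were scaled by total counts alone, 7 of 18 were above 0 and their median was -0.0043, where the median of all genes was -0.07. Its ends were Mccc2, a subunit of the leucine pathway's methylcrotonyl-CoA carboxylase, at 0.14 ± 0.0879 (SE) and Abat, the GABA transaminase, at -0.18 ± 0.157 (SE).

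The pyruvate dehydrogenase kinases Pdk1 to Pdk4, relatives of Bckdk that switch off the pyruvate complex, had log2 fold changes from 0.01 (Pdk1) to 0.17 ± 0.187 (SE, Pdk4). When scaled by total counts alone, 1 of 4 was above 0 and their median was -0.03, where the median of all genes was -0.07. Of 7 other large neutral amino acid transporters, 3 were above and 4 below 0, between Slc7a6 at 0.08 ± 0.138 and Slc7a7 at -0.30 ± 0.281 (SE). Slc6a15, the eighth, was too low to be tested. Of 5 regulators named for BCAA genes, 2 were above 0 and 3 below. They ran from Ppargc1a, a coactivator of mitochondrial genes, at 0.12 ± 0.124 to Mlxipl, which encodes the carbohydrate-response factor ChREBP, at -0.34 ± 0.143 (SE). The unadjusted edgeR p of Mlxipl was 0.0382, and its Benjamini-Hochberg adjusted p was 0.999. Of 13 genes from ATF4 and its targets, the amino acid stress response that includes Slc7a5 and Slc3a2, 5 were above and 8 below 0 with a median of -0.03, and Slc7a11 was too low to be tested. The ends there were Asns, asparagine synthetase, at 0.16 ± 0.295 and Phgdh, a serine synthesis enzyme, at -0.46 ± 0.365 (SE). The sixth list held Dld and Ppm1k, described above.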

How the data were processed

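Heart ventricle RNA was sequenced as stranded mRNA libraries, 1 per mouse. The authors deposited raw counts, whole numbers of reads per gene without normalization, after adapter trimming and removal of poor and ribosomal reads. The submitters' processing notes name cutadapt 1.13, STAR, HTSeq 0.6.1p1, DESeq2 1.14.1 and the mouse build mm10. Which annotation release was used, and whether reads were counted by strand, is not given in the sources used here. Reads of genes that overlap on opposite strands may thus be mixed or left uncounted, which bears on the levels of Bckdha and Bcat2. No lines named no gene (0). Names, positions and exon lengths came from GENCODE M21 (GRCm38), which held 54165 of the 54232 identifiers.

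Samples were grouped by their labels. Counts were compared with edgeR 4.0.16 (R 4.3.3): TMM scaling, filterByExpr (minimum count 10, minimum total 15), quasi-likelihood test, no covariate, and Benjamini-Hochberg adjustment over 14133 genes, with thresholds of 10% and 5%. The text names all 10 genes, Ppm1k and Dld, and the tested genes with the highest and lowest fold change of each list. Genes and lists were chosen with earlier results of these data known. Ratios used counts per kilobase and two-sided exact permutation tests, which with 3 against 3 give no p under 0.1, in Python 3.11.15 with numpy 2.4.6 and pandas 2.3.3. Correlations over mice were given a p after seeing the data. The count model was tested on simulated data, with changes larger than the estimate for any of the 10 genes. That test does not show whether changes as small as those reported here would be found. Alternatives were other scalings and filters, DESeq2 1.42.0, limma-voom (limma 3.58.1), the replicate number as a block, other gene lengths, a pseudocount of 0.5 in the ratios, and leaving out each mouse.

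Totals of 20369746 to 32734485 counts limit precision mainly for Bcat1, Slc7a5 and Slc7a8, and counting errors cover counting only. No pair of libraries agreed within sampling noise (chi-square per degree of freedom 6.67 to 28.2). The authors' own comparison tables were not used.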

Additional observations from a re-analysis of the deposited data

How the results depend on the processing

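None of the 10 genes passed an FDR of 10% or 5% under any alternative run, Slc7a8 and Bcat1 being untested under the filter of a mean CPM of at least 5. Signs of log2 fold changes turned for Slc7a8 (scaling by total counts alone -0.062, by nuclear counts -0.012, limma-voom -0.024), and, by total counts alone, for Slc3a2 (-0.031), Bckdha (-0.0033) and Dld (-0.020). Whether replicate numbers pair the mice was not tested, and the deviations of same-numbered mice had correlations of 0.214, 0.0375 and 0.0147. With the replicate block, Slc7a8 was -0.0056, and 2 genes of all tested passed 10%. Leaving out each mouse gave -0.11 to 0.20 for Slc7a8 and -0.042 to 0.039 for Slc25a44. For ratios it gave -0.047 to 0.051 (Bckdk to Bckdha), -0.12 to 0.081 (Bckdk to Bckdhb), -0.011 to 0.057 (Bckdk to Dld), -0.035 to 0.077 (Bckdhb to Bckdha), -0.023 to 0.11 (Bcat2 to Bckdha), -0.15 to 0.14 (Slc7a8 to Slc3a2) and -0.098 to 0.033 (Bckdk to the mean of the subunits). Over all genes, those past 10% numbered 0 in the report, 167 with no filter on low counts, 11 with DESeq2 and 0 to 3 without a mouse, and those past 5% numbered 140, 5 and 0 to 3. The cause was not tested.

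In TPM over all genes, Bckdha stood at 112, Bckdk at 70.7, Bcat2 at 66.6, Bckdhb at 63.5, Dbt at 55.7, Slc3a2 at 20.9, Slc25a44 at 14.9, Slc7a5 at 3.20, Slc7a8 at 1.79 and Bcat1 at 0.359. Longest transcript lengths gave 0.958 CPM/kb for Slc7a8, 11.5 for Slc3a2, 54.6 for Bcat2, 34.0 for Bckdhb and 33.5 for Bckdk. In all, 215 values with a mouse left out and 133 under other alternatives kept their direction and their side of the threshold, or moved by less than the spread between mice. With a mouse left out, 17 others reversed and 8 moved, and under other alternatives 7 reversed and 20 moved. The values kept include counts of genes past a threshold that stayed at 0. Depth limits Bcat1 most, where counting error reached 26.7%.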
